A study of Mus musculus with 6 samples.

Results

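Costimulatory and checkpoint molecules are the surface receptors and ligands that decide whether a T cell that has met its antigen goes on to respond. The 6 genes described here are Cd28, Icos, Pdcd1, Cd27, Cd40lg and Cd86, found by symbol in the deposited count table. All 6 had a row, among 4162 genes listed, and all 6 passed the filter on low counts. RNA was sequenced from splenic CD4+ T cells of 3 UTX TCD mice and 3 WT mice on a B6 background. Cells of both genotypes had been enriched as naive with a magnetic kit and then stimulated for 48 h with anti-CD3 fixed to the plate and anti-CD28 in the medium, so every library comes from cells whose CD28 was engaged by antibody. UTX TCD mice lack UTX in T cells, by the submitters' design text. UTX, encoded by Kdm6a, is a demethylase of histone H3 lysine 27. The sources used here name neither the means of deletion and the exons it removes nor the age and sex of the mice.

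A T cell receives a first signal through its antigen receptor and a second through costimulatory receptors. CD28 and ICOS belong to the immunoglobulin superfamily and signal through phosphoinositide 3-kinase. CD28 is present on naive T cells and binds CD80 and CD86 on antigen-presenting cells, while ICOS is induced by activation and supports follicular helper cells. PD-1, encoded by Pdcd1, is a related receptor induced by activation that recruits a phosphatase and dampens signals of CD28 and the antigen receptor. CD27 is a receptor of the tumour necrosis factor (TNF) receptor superfamily that binds CD70 and favours survival. CD40 ligand is a TNF family protein that activated CD4+ T cells show to B cells and dendritic cells, whose CD40 then licenses them. CD86 is best known on antigen-presenting cells, and activated T cells can also carry it.

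The table is a selection of genes. No more than 20 of 4118 tested genes lay within 0.1 of a log2 fold change of 0, so genes that differ between the genotypes were favoured. That each of the 6 genes differs is therefore not independent evidence, and CPM, the counts scaled to a common library total, are relative to the listed genes. Column totals ran from 8363326 to 9497542 counts in UTX TCD and from 8823939 to 10288306 in WT libraries. UTX TCD replicate 2 stood apart, at 42.9 on the first principal component of log2 CPM against 18.9 and 24.5 for the others of its genotype. Kdm6a had 188, 207 and 179 CPM in UTX TCD and 286, 281 and 281 CPM in WT libraries, without overlap (log2 fold change -0.56 ± 0.09, edgeR adjusted p = 0.00293). Its count covers the whole gene, so reads that remain do not show whether the deleted exons were lost. Of 13 T cell markers, 4 had a row (Lck, Lat, Cd2 and Thy1), 1 higher and 2 lower. Their summed level was 2952 to 3681 CPM in UTX TCD and 3509 to 3842 CPM in WT libraries, a sum that joins opposite changes. Thy1 had 42.9, 77.6 and 49.9 CPM in UTX TCD and 887, 718 and 820 CPM in WT libraries (log2 fold change -3.83 ± 0.23, edgeR adjusted p = 0.000190), a larger difference than in any of the 6 genes. Cd2 was higher by 1.10 ± 0.23 and Lat lower, at -0.44 ± 0.08. The other 9 markers, Cd3e and Cd4 among them, had no row and so were not analysed here.

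Each of the 6 genes passed the test between genotypes, the edgeR quasi-likelihood test at a Benjamini-Hochberg adjusted p under 0.05. Of all tested genes, 68.1% passed, and of those calls 60.4% were higher, a share of 45.8% to 70.6% under other scalings. Cd28, Icos and Cd27 were higher in UTX TCD cells, a direction in which 41.1% of tested genes passed. Pdcd1, Cd40lg and Cd86 were lower, a direction in which 27% passed. In none of the 6 did libraries of the genotypes overlap, as was so for 85.8% of tested genes (41.8% with UTX TCD higher and 44% with UTX TCD lower). The costimulatory receptors were thus the higher members, and the inhibitory receptor and both ligands the lower ones. In bulk RNA, fewer cells that carry a transcript and less of it per cell cannot be told apart.

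**Figure D1:**
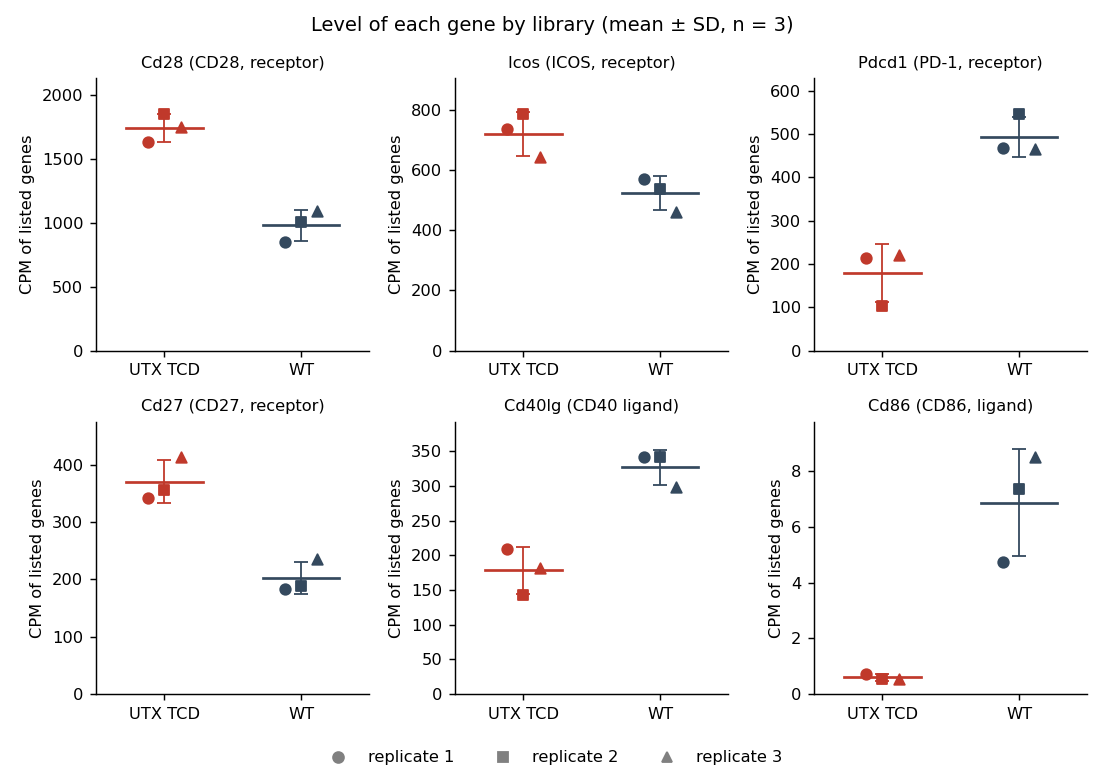
CPM of the 6 genes in each library, UTX TCD at left and WT at right, with the mean as a line and the SD as a bar (n = 3 mice per genotype). Cd28, Icos and Cd27 lie higher in every UTX TCD library, and Pdcd1, Cd40lg and Cd86 lie lower in every one, with UTX TCD replicate 2 the lowest for Pdcd1 and Cd40lg.

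Cd28, the receptor that the stimulation engaged, had the most reads of the 6. Its gene lies on chromosome 1 from 60716800 to 60773359 on the plus strand (ENSMUSG00000026012, GRCm38). UTX TCD libraries held 13560, 17538 and 16828 counts, or 1634, 1854 and 1753 CPM, against 8574, 9260 and 9618 counts, or 849, 1004 and 1092 CPM, in WT libraries. The lowest UTX TCD library thus lay above the highest WT library. The mean was 1747 ± 110 CPM in UTX TCD and 982 ± 123 CPM in WT cells (SD, n = 3 each). Cd28 was 1.78-fold higher, a log2 fold change of 0.83 ± 0.11 (SE, edgeR adjusted p = 0.00203). Without UTX TCD replicate 2 the log2 fold change was 0.78.

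Icos, the inducible relative of Cd28, showed the smallest difference of the 6. It lies on the same chromosome from 60977927 to 61000320 on the plus strand (ENSMUSG00000026009), 204567 bases beyond Cd28. Ctla4, the inhibitory relative that also binds CD80 and CD86, lies between them, had no row and so was not analysed here. Icos had 735, 786 and 641 CPM in UTX TCD libraries, against 569, 538 and 461 CPM in WT libraries. UTX TCD replicate 3 and WT replicate 1 were the nearest across the genotypes. Its log2 fold change was 0.46 ± 0.11 (edgeR adjusted p = 0.0130), which is 1.38-fold. The call was lost without WT replicate 2 (0.48, edgeR adjusted p = 0.0506) and when p-values were adjusted as if all 22028 annotated protein-coding genes had been tested (edgeR adjusted p = 0.0696).

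Pdcd1, which encodes the inhibitory receptor PD-1, was lower. It lies on chromosome 1 from 94038305 to 94052553 on the minus strand (ENSMUSG00000026285). UTX TCD libraries held 1769, 967 and 2124 counts, or 213, 102 and 221 CPM, against 4723, 5036 and 4108 counts, or 468, 546 and 466 CPM, in WT libraries. Every UTX TCD library lay far below every WT library, and replicate 2 was the lowest. The log2 fold change was -1.46 ± 0.27 (edgeR adjusted p = 0.00514), or 2.76-fold lower. Without UTX TCD replicate 2 it was -1.19 ± 0.08 (edgeR adjusted p = 0.000409).

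Cd27, the survival receptor of the TNF receptor superfamily, was higher by nearly the same factor as Cd28. It lies on chromosome 6 from 125232622 to 125237010 on the minus strand (ENSMUSG00000030336). It had 342, 356 and 413 CPM in UTX TCD libraries, against 184, 189 and 235 CPM in WT libraries. Replicate 3 was the highest library in each genotype, and the groups lay far apart. The log2 fold change was 0.87 ± 0.13 (edgeR adjusted p = 0.00261), or 1.83-fold. Within its exons lies a microRNA gene, Mir8113, which shares 129 bases with it on the same strand.

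Cd40lg, which encodes CD40 ligand, was lower by a similar factor. It lies on chromosome X from 57212143 to 57224042 on the plus strand (ENSMUSG00000031132). It had 209, 143 and 182 CPM in UTX TCD libraries, against 342, 342 and 298 CPM in WT libraries. UTX TCD replicate 2 was the lowest library here as for Pdcd1. The log2 fold change was -0.88 ± 0.14 (edgeR adjusted p = 0.00375), or 1.84-fold lower, and without that library it was -0.75 ± 0.09. Xist, the RNA of the inactive X chromosome, was found in every library, at 3896 to 4350 CPM in UTX TCD and 2793 to 2910 CPM in WT libraries. It was higher by 0.55 ± 0.08 on the log2 scale (edgeR adjusted p = 0.00289), and its part in the Cd40lg difference was not tested.

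Cd86, the ligand of CD28, was the least abundant of the 6 and had the largest difference. It lies on chromosome 16 from 36603869 to 36666081 on the minus strand (ENSMUSG00000022901). UTX TCD libraries held 6, 5 and 5 counts, against 48, 68 and 75 counts in WT libraries. Their exact 95% Poisson intervals, which cover counting error only, reached at most 13.1 counts in UTX TCD libraries and began at 35.4 counts or more in WT libraries. Cd86 had 0.591 ± 0.115 CPM in UTX TCD and 6.88 ± 1.93 CPM in WT cells (SD, n = 3 each). The log2 fold change was -3.52 ± 0.39 (edgeR adjusted p = 0.00113), or 11.5-fold lower, the 15th lowest among 4118 tested genes.

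Markers of the cells best known for CD86 were sparse in the table. Because the table favours genes that differ between genotypes, a missing row does not show that a marker was absent. Of 13 T cell markers, too, only 4 had a row. Of 16 B cell markers, 4 had a row, and their sum was 491 to 789 CPM in UTX TCD and 460 to 555 CPM in WT libraries, nearly all of it Ighm. Ighm itself did not pass (log2 fold change 0.38 ± 0.17, edgeR adjusted p = 0.0743). Of the rest, Fcer2a had 10.8, 7.29 and 16.1 CPM in UTX TCD and 21.5, 20.8 and 21.2 CPM in WT libraries (edgeR adjusted p = 0.0286), a call lost with any 1 WT library left out. Fcmr, at 2.89, 4.44 and 2.40 CPM in UTX TCD and 1.98, 1.41 and 1.02 CPM in WT libraries, was higher by 1.13 ± 0.41 (edgeR adjusted p = 0.0398). The Fcmr call ended with any 1 WT library or UTX TCD replicate 2 left out, and with the replicate block (edgeR adjusted p = 0.0535). Ighd had 6.75, 10.6 and 11.0 CPM in UTX TCD and 5.55, 6.40 and 6.02 CPM in WT libraries, without overlap, and did not pass (0.66 ± 0.27). Of 18 dendritic cell markers, Irf8 and Ccr7 had a row, both of which T cells also express, with sums of 1663 to 2799 CPM in UTX TCD and 2264 to 2753 CPM in WT libraries. Irf8 alone had 973, 517 and 664 CPM in UTX TCD and 1953, 1550 and 1712 CPM in WT libraries (log2 fold change -1.28 ± 0.22, edgeR adjusted p = 0.00430). Ccr7 had 984, 2281 and 999 CPM in UTX TCD and 800, 714 and 931 CPM in WT libraries, without overlap, and did not pass (0.80 ± 0.32, edgeR adjusted p = 0.0526). Of 10 markers of CD8 T cells and NK cells, 5 had a row (2 higher, 1 lower) and summed to 81.7 to 137 CPM in UTX TCD and 99.2 to 161 CPM in WT libraries, sums that join opposite changes. Cd8b1 had 31.5, 56.2 and 40.8 CPM in UTX TCD and 11.6, 14.5 and 12.8 CPM in WT libraries, and rose by 1.72 ± 0.24. Nkg7 fell by 2.02 ± 0.21 on the log2 scale, and Klrd1 was at 1.40 ± 0.36, a call lost without WT replicate 1 or 2. No row was held by any of 19 macrophage and monocyte markers. None of the marker genes with a row was at 0 in any library. The part of other cells in the Cd86 difference was not tested.

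The promoters of Pdcd1 and Cd27 are shown because these receptors changed in opposite directions and both sequences were in the RefSeq promoter table (GRCm38.p6). Each run gives the 250 bases before the RefSeq start on the minus strand, which for Cd27 lies upstream of the GENCODE start given above, 5′ to 3′, for chr1:94052554-94052803 (Pdcd1) and chr6:125237028-125237277 (Cd27). Capitals mark GGAAA on either strand, the core that binds NFAT, the calcium-dependent factor of T cell activation. NFAT is known to act on Pdcd1, and whether it does so through the cores marked here was not tested.
Pdcd1: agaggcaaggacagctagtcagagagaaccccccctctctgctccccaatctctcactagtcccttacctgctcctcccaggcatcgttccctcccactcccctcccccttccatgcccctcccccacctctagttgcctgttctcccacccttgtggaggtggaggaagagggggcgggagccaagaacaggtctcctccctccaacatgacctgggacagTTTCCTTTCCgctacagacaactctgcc
Cd27: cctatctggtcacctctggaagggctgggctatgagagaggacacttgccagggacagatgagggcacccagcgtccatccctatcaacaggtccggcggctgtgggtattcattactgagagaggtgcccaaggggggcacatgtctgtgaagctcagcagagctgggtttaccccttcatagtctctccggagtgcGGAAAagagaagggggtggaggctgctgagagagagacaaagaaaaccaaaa

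The Pdcd1 promoter held 2 such cores side by side on the opposite strand, from -28 to -19 relative to the RefSeq start. The Cd27 promoter held 1, from -52 to -48. GGAAA was present in 55.6% of 27025 promoters of this length. A pair of such cores in direct succession on 1 strand, looked for after the Pdcd1 sequence was seen, was in 88 of them, or 0.326%. GGGCGG, the GC box, was in the Pdcd1 promoter and in 32.9% of all, and both promoters held GGAAG, the ETS core, as did 63.6%. In neither window were the AP-1 motif TGANTCA (in 6.87% of promoters), TATAAA (13.0%), the TCF/LEF motif CTTTGA (14.0%), the RUNX motif TGTGGT (14.2%) or the NF-kB motif GGGA, any 2 bases, TTCC (1.17%). All motifs were searched on both strands. The Pdcd1 promoter was 60.4% G and C with 3 CpG dinucleotides and that of Cd27 was 56.0% with 5, where the medians over all promoters were 52.0% and 6.0. A match of letters is a description and does not show that a factor binds.

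Scaled by length, the order of the 6 genes differed between the genotypes. Levels here are CPM per kilobase of annotated exon, joined over all transcripts of a gene, for an approximate comparison of genes. Cd27 has 6 annotated transcripts, and Cd40lg and Pdcd1 have 1 each. Where the joined exons are longer than the RNA expressed, the level is too low, so the order may depend on this choice. In UTX TCD cells Cd28 came first at 285 ± 18.0, then Icos at 210 ± 21.3, Cd27 at 159 ± 16.2, Cd40lg at 143 ± 26.7, Pdcd1 at 92.7 ± 34.5 and Cd86 at 0.161 ± 0.0313 CPM per kilobase (SD, n = 3). In this order the libraries of Cd27 overlapped those of Cd40lg, and those of Cd40lg touched the range of Pdcd1. In WT cells Cd40lg came first at 262 ± 20.2, then Pdcd1 at 256 ± 23.7, Cd28 at 160 ± 20.1, Icos at 152 ± 16.1, Cd27 at 87.0 ± 12.1 and Cd86 at 1.88 ± 0.527 CPM per kilobase. Here Cd40lg and Pdcd1 overlapped, as did Cd28 and Icos. On this scale CD40 ligand and PD-1 transcripts led in WT cells, and those of CD28 and ICOS in UTX TCD cells.

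**Figure D2:**
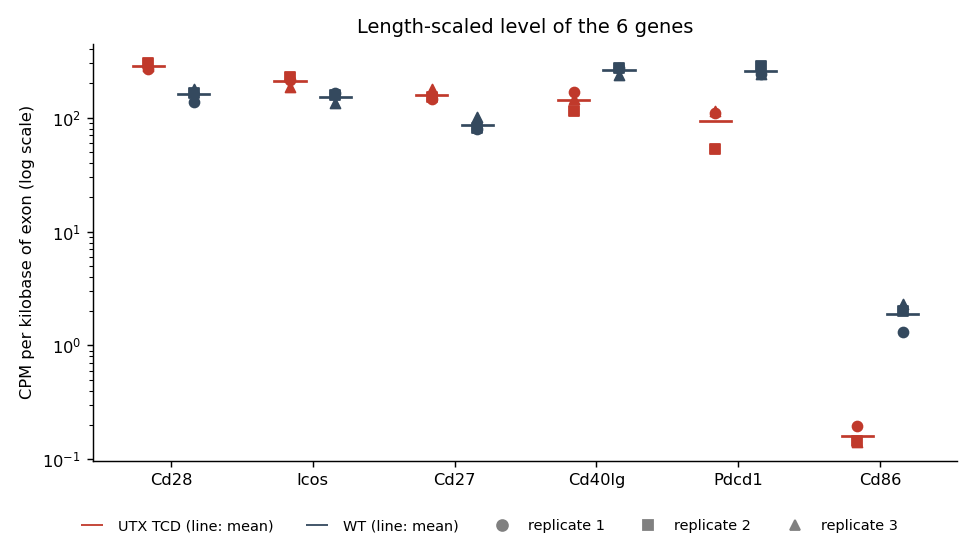
CPM per kilobase of exon on a log axis for the 6 genes in each library, UTX TCD left of WT for each gene, with the mean as a line (n = 3 per genotype). Cd28 leads in UTX TCD cells at 285, Cd40lg and Pdcd1 lead in WT cells at 262 and 256, and Cd86 is last in both.

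Ratios of 2 genes in the same library do not depend on scaling between libraries. Cd28 reads outnumbered Pdcd1 reads 7.67, 18.1 and 7.92 to 1 in UTX TCD libraries, against 1.82, 1.84 and 2.34 to 1 in WT libraries. The log2 ratio differed by 2.38 between genotypes. The ratio of Cd27 to Cd40lg reads, a receptor and a ligand of the TNF families, was 1.63, 2.49 and 2.27 in UTX TCD libraries, against 0.538, 0.554 and 0.789 in WT libraries. That log2 ratio differed by 1.77. Per kilobase of exon Cd27 was below Cd40lg in every WT library and also in UTX TCD replicate 1, at 147 for Cd27 and 168 for Cd40lg. Cd28 to Cd86, receptor to ligand, was 2260, 3508 and 3366 in UTX TCD libraries and 179, 136 and 128 in WT libraries, a difference of 4.35 in the log2 ratio. These 3 ratios did not overlap between genotypes (exact two-sided permutation p = 0.1 each, the smallest that 3 against 3 libraries can give, and 0.133 adjusted over the 4 ratios). The fourth, Cd28 to Icos, was 2.22, 2.36 and 2.73 in UTX TCD and 1.49, 1.87 and 2.37 in WT libraries. It overlapped and differed by 0.37 in log2 (exact permutation p = 0.3), so a different change in these relatives was not shown.

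**Figure D3:**
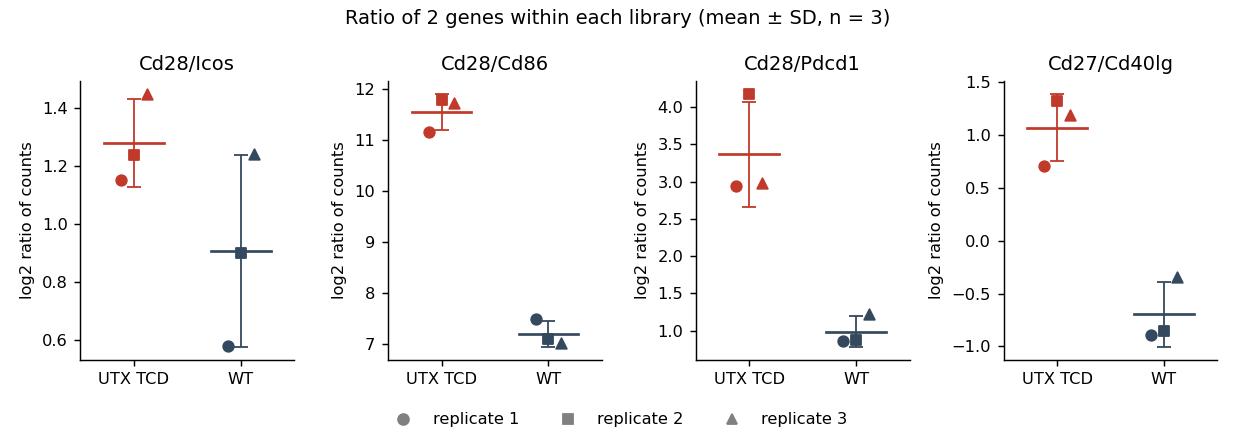
Log2 ratio of raw counts for 4 pairs of genes within each library, UTX TCD at left and WT at right, with the mean as a line and the SD as a bar (n = 3). Cd28/Cd86, Cd28/Pdcd1 and Cd27/Cd40lg lie apart between genotypes, and Cd28/Icos overlaps.

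Spread among mice differed between the genes. For Pdcd1 the coefficient of variation was 37.2% among UTX TCD and 9.26% among WT libraries, where counting error alone gives 2.48% for UTX TCD and 1.47% for WT libraries. Cd40lg varied by 18.7% among UTX TCD and 7.71% among WT libraries. Cd28 varied by 6.29% among UTX TCD and 12.5% among WT libraries. For Cd86 in UTX TCD libraries the variation of 19.4% was below the counting error of 43.3%, so its spread among mice is not resolved at this depth. UTX TCD replicate 2 was below its group's mean for Pdcd1 by 0.72 and for Cd40lg by 0.30 on the log2 scale, and above it for Icos by 0.13. This library was therefore the farthest from WT in each of these 3 genes.

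The difference in each gene kept its direction under every alternative tried. Over all scalings, filters, tools and left-out libraries, the log2 fold change was 0.73 to 0.91 for Cd28, 0.38 to 0.54 for Icos, -1.65 to -1.19 for Pdcd1, 0.78 to 0.99 for Cd27, -1.01 to -0.75 for Cd40lg and -3.73 to -3.34 for Cd86. All but Icos passed in each of them.

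**Figure D4:**
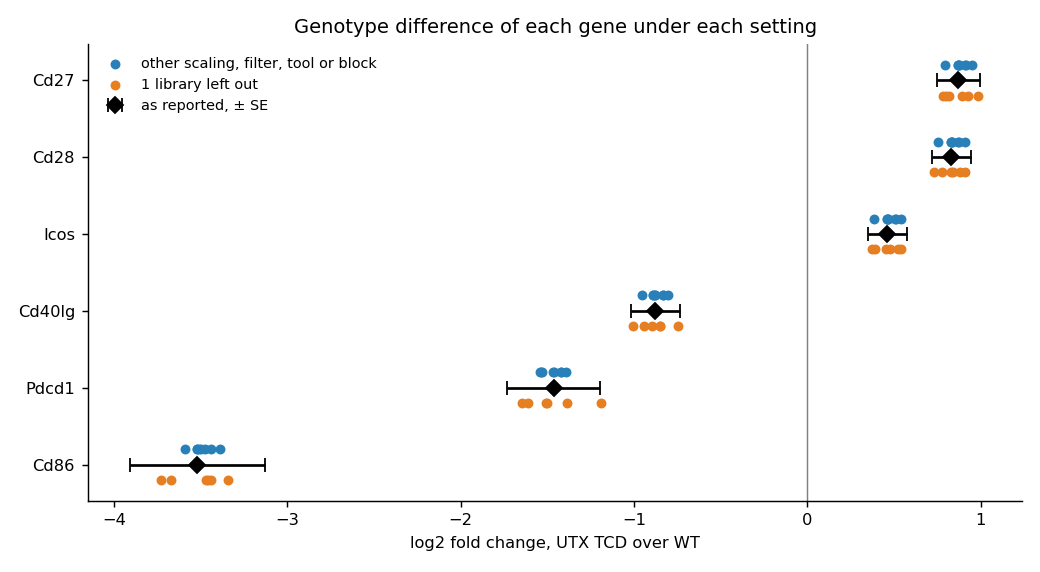
Log2 fold change of each gene, UTX TCD over WT, as reported with its SE (black), under other scalings, filters, tools or a replicate block (blue), and with 1 library left out (orange). No point crosses 0, and the blue and orange points of each gene lie near its reported value.

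Ligands and relatives of these receptors were counted by family, and each count stands beside the 41.1% of tested genes that were higher and the 27% that were lower. Of 13 genes of the CD28 and B7 families, 8 had a row, of which 3 were higher, 4 were lower and Btla, another inhibitory receptor, did not pass (-0.05 ± 0.09). Their median log2 fold change was -0.25, where that of all tested genes was -0.15. Pdcd1lg2, which encodes the PD-1 ligand PD-L2, had 74.2, 44.4 and 78.0 CPM in UTX TCD and 149, 160 and 154 CPM in WT libraries. It fell by 1.24 ± 0.20 on the log2 scale (edgeR adjusted p = 0.00357). Cd274, which encodes the other PD-1 ligand, was at -0.44 ± 0.13, a call that did not hold without UTX TCD replicate 3, WT replicate 1 or WT replicate 2. Cd80, the second ligand of CD28, had 28.2, 66.0 and 14.9 CPM in UTX TCD and 16.5, 13.9 and 15.8 CPM in WT libraries. Its groups overlapped, and its log2 fold change of 1.24 ± 0.48 (edgeR adjusted p = 0.0492) became 0.47 without UTX TCD replicate 2. Cd80 held its call in 1 of the 6 fits that left out a library, the one without UTX TCD replicate 3. It was also lost with the replicate block (edgeR adjusted p = 0.0749), limma-voom (limma adjusted p = 0.124) and scaling centred on the gap in fold changes near 0 (edgeR adjusted p = 0.0509). Leaving out WT replicate 2 gave 1 higher gene in the family. Icosl, the ligand of ICOS, was not analysed here.

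In the TNF and TNF receptor superfamilies, 11 of 17 genes had a row. Of these, 8 were lower, namely all 5 ligands that had a row (Cd40lg, Cd70, Tnfsf4, Tnfsf9 and Tnfsf14) and the receptors Tnfrsf1b, Tnfrsf8 and Tnfrsf25. The 3 higher genes were receptors too, Cd27, Tnfrsf18 and Tnfrsf14, so receptors went both ways. The median was -0.88. Cd70, the ligand of CD27, had 0.362, 1.27 and 0.521 CPM in UTX TCD and 4.46, 5.64 and 3.29 CPM in WT libraries (log2 fold change -2.60 ± 0.49, edgeR adjusted p = 0.00570). Tnfsf14, which encodes the costimulatory ligand LIGHT, fell by 1.17 ± 0.15 on the log2 scale. The call of Tnfsf4, the OX40 ligand, was lost without WT replicate 2. Tnfrsf1b, the second TNF receptor, fell by 1.07 ± 0.10, and Tnfrsf8, which encodes CD30, by 1.81 ± 0.29. Tnfrsf25 was at -1.08 ± 0.30 (edgeR adjusted p = 0.0190). Without WT replicate 1 or 2, Cd27 was the 1 higher gene left. Tnfrsf18, at 0.59 ± 0.22, was at 0.27 without UTX TCD replicate 2. The receptors Tnfrsf18, Tnfrsf14 and Tnfrsf25 are named after their values were seen. Cd40, the receptor of CD40 ligand, was not analysed here.

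**Figure D5:**
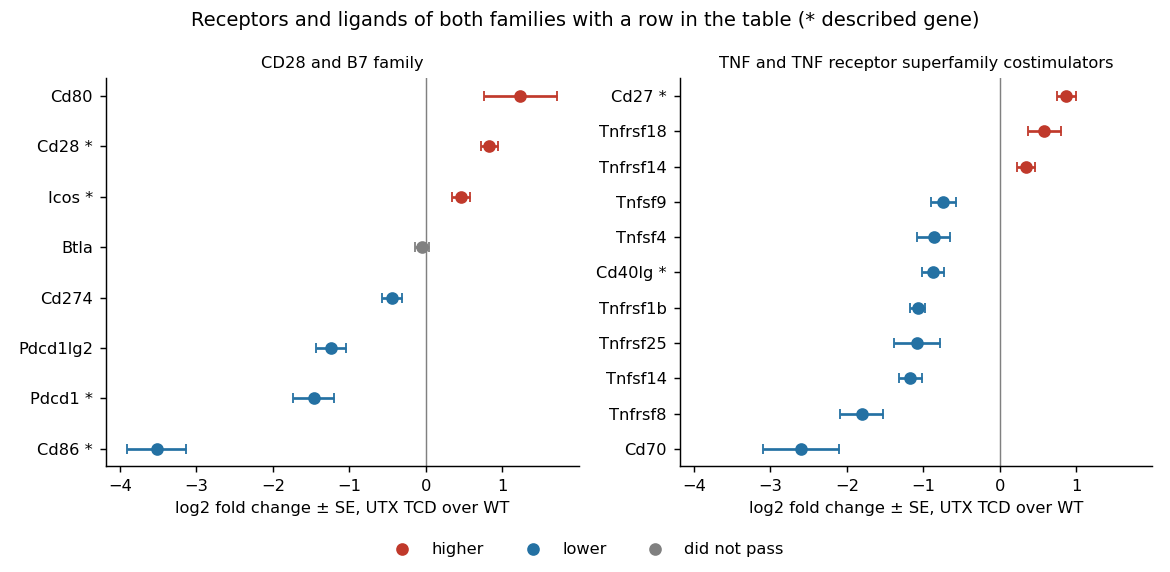
Log2 fold change with SE, UTX TCD over WT, for genes of the CD28 and B7 families (left) and of the TNF and TNF receptor superfamilies (right) that had a row, coloured by call. Cd86 is lowest at left at -3.52 and Cd70 lowest at right at -2.60.

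Other inhibitory receptors and their ligands had 7 of 22 genes with a row, 2 higher and 5 lower, at a median of -0.73. Cd200, a ligand that restrains myeloid cells, had 888, 882 and 839 CPM in UTX TCD and 1479, 1504 and 1348 CPM in WT libraries, and fell by 0.73 ± 0.08 (edgeR adjusted p = 0.00113). Tigit, an inhibitory receptor of nectin ligands, fell by 1.02 ± 0.20. Cd160 was at -1.04 ± 0.31 and Lag3, an inhibitory receptor for MHC class II, at 0.33 ± 0.10. Leaving out any 1 WT library ended the call of Cd160, and WT replicate 1 or 2 that of Lag3. Higher genes numbered 0 without WT replicate 1 or 2 and 1 without WT replicate 3. Lower genes numbered 3 without UTX TCD replicate 2 or WT replicate 1, and 2 without WT replicate 2 or 3.

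Among SLAM and other costimulatory receptors, 12 of 17 had a row, 4 higher and 6 lower, at a median of -0.38. Cd2, an adhesion receptor that costimulates T cells, had 969, 1675 and 914 CPM in UTX TCD and 611, 492 and 555 CPM in WT libraries, and rose by 1.10 ± 0.23 (edgeR adjusted p = 0.00778). Crtam, an activation-induced receptor, had 21.3, 10.4 and 33.1 CPM in UTX TCD and 87.7, 139 and 177 CPM in WT libraries. It fell by 2.64 ± 0.42. Slamf7 fell by 1.06 ± 0.15 and Cd24a rose by 0.81 ± 0.17. With any 1 WT library left out 2 were higher, and without WT replicate 2 there were 3 lower.

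Genes that act below these receptors were counted in 3 lists. Below CD28 and ICOS, 15 of 29 had a row, of which 10 were higher and 1 was lower, beside 41.1% higher and 27% lower over all tested genes. Their log2 fold changes had a median of 0.46, against -0.15 for all tested genes. Pik3cd, the catalytic subunit of the leukocyte phosphoinositide 3-kinase, had 1189, 1480 and 1455 CPM in UTX TCD and 753, 745 and 965 CPM in WT libraries, and rose by 0.74 ± 0.13 (edgeR adjusted p = 0.00511). Vav3, an exchange factor, rose by 0.65 ± 0.10 and Rictor, a subunit of mTOR complex 2, by 0.49 ± 0.10. Pik3ap1, an adaptor for the same kinase, was the lower one at -2.01 ± 0.17. Higher genes numbered 4 without WT replicate 1 or 2, where higher genes over the whole table fell from 1692 to 812 and 730. When UTX TCD replicate 1 was dropped 2 were lower, and 4 when UTX TCD replicate 2 was. Over the whole table lower genes then rose from 1111 to 1428 and 1458.

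Below PD-1, 7 of 12 genes had a row, 2 higher and 3 lower, at a median of -0.30. Cblb, a ubiquitin ligase that restrains activation without CD28, had 1725, 2487 and 1416 CPM in UTX TCD and 901, 675 and 831 CPM in WT libraries, and rose by 1.23 ± 0.21 (edgeR adjusted p = 0.00426). Dok2, an inhibitory adaptor, fell by 0.51 ± 0.09. Ptpn11, which encodes SHP-2, the phosphatase that PD-1 recruits, was at -0.35 ± 0.12 (edgeR adjusted p = 0.0344) and at -0.23 without UTX TCD replicate 2. Its call ended with any 1 WT library left out. Pag1, a membrane adaptor, at -0.30 ± 0.08, and Sla, an adaptor that limits antigen receptor signals, at 0.28 ± 0.07, lost theirs without WT replicate 1 or 2. Higher genes numbered 1 with any 1 WT library left out, and lower genes 1 without WT replicate 1 or 2. Below CD27 and CD40, 8 of 21 had a row, 1 higher and 3 lower, at a median of -0.23. Birc2, a ubiquitin ligase, was at 0.51 ± 0.15, Nfkb1 and Nfkb2, which encode NF-kB subunits, at -0.27 ± 0.08 and -0.35 ± 0.13, and Traf2, a receptor adaptor, at -0.24 ± 0.08. With any 1 WT library left out 0 were lower, against 1 when UTX TCD replicate 3 was dropped and 6 when UTX TCD replicate 2 was, and the higher one was lost without WT replicate 1 or 2. Birc2 was at 0.31 without UTX TCD replicate 2.

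Transcription factors known to act on these genes had 22 of 34 with a row, 7 higher and 7 lower, at a median of -0.19. Nfatc2, an NFAT family member, had 257, 222 and 240 CPM in UTX TCD and 334, 321 and 317 CPM in WT libraries. It fell by 0.43 ± 0.09 (edgeR adjusted p = 0.00663). Jund, an AP-1 subunit, fell by 0.56 ± 0.08 and Bcl6, the factor of follicular helper cells, fell by 0.78 ± 0.15. Nr4a2, an orphan nuclear receptor induced by antigen receptor signals, fell by 0.69 ± 0.12. These 4 have the smallest p of the list, and all are lower. Also lower were Tbx21 at -0.98 ± 0.23, the largest fall of the list, Egr3 at -0.60 ± 0.19 and Egr2 at -0.54 ± 0.17. Of the 7 higher, Foxo1 was at 0.51 ± 0.11, Tcf7 at 0.45 ± 0.11 and Irf4 at 0.35 ± 0.12. Myb was at 1.19 ± 0.27, Tox2 at 1.49 ± 0.35 and Gata3, whose libraries overlapped, at 1.10 ± 0.39. Nr4a3, a relative of Nr4a2, had 2236, 2659 and 1550 CPM in UTX TCD and 1409, 1205 and 1480 CPM in WT libraries. Nr4a3 rose by 0.65 ± 0.19 (edgeR adjusted p = 0.0209). Higher genes numbered 4 without WT replicate 1 and 2 without WT replicate 2.

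Genes with the most similar pattern were found by the root mean square difference of log2 CPM over the 6 libraries, after each gene's own mean was subtracted. Each of the 6 genes was compared with genes of an average log2 CPM of 2 or more. For Cd28 the nearest of 3882 other genes was Klhl6 (0.06), which was also the second nearest to Cd27 (0.07). Unc13a was nearest to Cd27 (0.05) and Lcorl to Icos (0.04). Rgs16, a regulator of G protein signalling, was nearest to Pdcd1 (0.12), followed by Pkhd1l1 (0.14). For Cd40lg they were F2r, a thrombin receptor gene (0.05), and Itgal, which encodes a chain of the integrin LFA-1 (0.06). For Cd86 the nearest, Zdbf2, was farther off (0.27). Cd86 itself averaged 1.98, below that minimum, with 6, 5 and 5 counts in UTX TCD libraries, so its distances are less precise. The part of low counts in this distance was not tested. Among the 6 genes themselves Cd28 and Cd27 were the most alike (0.11), then Cd28 and Icos (0.28), Icos and Cd27 (0.33) and Pdcd1 and Cd40lg (0.40). These distances carry the genotype difference for which the table was selected, and are given as a description.

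The nearest listed gene on each side of the 6 genes was looked at, chosen by position, at distances of 761 to 1702964 bases. Nearer genes without a row were passed over. Of all tested genes 68.1% passed, 41.1% higher and 27% lower, so a shared direction is common in this table. Shared control of neighbouring genes was not tested. Gm11579, a long noncoding RNA gene 3305 bases beyond Cd28 and on the opposite strand, had 51, 74 and 81 counts in UTX TCD and 21, 27 and 38 counts in WT libraries. Its log2 fold change was 1.27 ± 0.33 (edgeR adjusted p = 0.0157), in the direction of Cd28, and was lost without WT replicate 1 or 2. Gm14718, 7764 bases before Cd40lg on the same strand, had 76, 55 and 70 counts in UTX TCD and 142, 180 and 166 counts in WT libraries. It fell by 1.24 ± 0.25 (edgeR adjusted p = 0.00742), as Cd40lg did. On the other side of Cd40lg, 7442 bases away, Arhgef6 was at -0.29 ± 0.09 (edgeR adjusted p = 0.0273), a call that ended with any 1 WT library left out. Stfa3, which encodes a stefin, lay 148476 bases from Cd86 and had 4, 3 and 9 counts in UTX TCD and 50, 46 and 43 counts in WT libraries (log2 fold change -3.05 ± 0.42). Tapbpl, 761 bases from Cd27, went the other way from it, at -0.31 ± 0.08 (edgeR adjusted p = 0.0165), a call lost with any 1 WT library left out. Both neighbours of Pdcd1 were higher where Pdcd1 was lower, D2hgdh at 0.61 ± 0.17 and 185956 bases away, and St8sia4 at 1.82 ± 0.28 and 1535128 bases away. The D2hgdh call was lost without UTX TCD replicate 3 or any 1 WT library. Nrp2, 1702964 bases beyond Icos, was at 1.53 ± 0.43, a call lost without WT replicate 1 or 3. Abi2 beside Cd28 (-0.14 ± 0.10), 4930417O13Rik beside Cd27 (0.23 ± 0.25) and Gtf2e1 beside Cd86 (-0.20 ± 0.09) did not pass. No source used here states the strand setting of the counting, so reads from overlapping or adjoining transcripts could not be assigned to a strand.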

How the data were processed

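The authors deposited raw counts, a whole number of reads per gene for each of 6 libraries. FastQC, HISAT2, HTSeq and build mm10 are named per the submitters' processing notes, which state no versions. The annotation and strand setting could not be read from any source used here. Genes that differ between genotypes were favoured in the table, so adjusted p-values count too few tests. Genes were tested with edgeR 4.0.16 in R 4.3.3 (quasi-likelihood test, genotype as the only term, TMM scaling, minimum count 10 and total 15, which left out 44 genes, Benjamini-Hochberg over all 4118 tested genes, threshold 0.05). Standard errors (SE) were derived from each log2 fold change and its F statistic. CPM use TMM-scaled totals, and log2 CPM a prior count of 2. Each library is 1 mouse. Positions and exon lengths are from GENCODE (GRCm38), in which 4121 of 4162 genes matched by symbol. Promoters of 2 of the 6 genes were in the RefSeq table. The genes and lists were chosen with earlier results of these data known. Named genes are the 6 genes, their receptor or ligand partners, up to 4 called genes with the smallest p in each list, the 3 genes of most similar pattern (the nearest are given) and Kdm6a. Neighbours, Ptpn11, Ighd, Ccr7, Lck, Tnfsf4, Tnfsf9, Tnfrsf14, Tnfrsf18, Tnfrsf25, Btla, Ighm and Xist are named beyond that rule, with values seen. So are the higher transcription factors, Tbx21, Egr2 and Egr3. Alternatives were other scalings, no filter, DESeq2 1.42.0, limma-voom (limma 3.58.1), a replicate block, a larger number of tests and each library left out. The fit was also run on simulated data, and the outcome is not reported here.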

Additional observations from a re-analysis of the deposited data

How the results depend on the processing

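Of 84 alternative values of the 6 log2 fold changes, 82 kept direction and call. The 4 ratios, none of which passed, kept their direction in all 28 alternative values, and the Cd28 to Icos difference of 0.37 was 0.21 without WT replicate 1. The exceptions among the fold changes were both for Icos, at 0.46 (edgeR adjusted p = 0.0696) with p-values adjusted over 22028 genes, and at 0.48 without WT replicate 2, in a range of 0.38 to 0.54 over left-out libraries. Over all listed genes, 1692 were higher and 1111 lower. Adjusted over 22028 genes these were 625 and 296, with upper-quartile scaling 725 were lower, and with scaling centred on the emptiest fold change 1832 were lower. With 1 library left out, 730 to 1824 were higher and 351 to 1458 lower.

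Adjusted over 22028 genes, the higher and lower genes of the lists were as follows. The CD28 and B7 families had 1 higher and 3 lower, and the TNF families 1 higher and 6 lower. There were 0 higher and 2 lower among inhibitory receptors and 2 and 2 among SLAM receptors. Below CD28 and ICOS there were 3 and 1, below PD-1 1 and 1, and below CD27 and CD40 0 and 0. Transcription factors had 1 and 4. With gap-centred scaling, 1 TNF family gene and 1 inhibitory receptor were higher, 4 genes below CD28 and ICOS and 5 below CD27 and CD40 were lower. Inhibitory receptors had 1 higher with limma-voom and 3 lower with RLE scaling, upper-quartile scaling or DESeq2. Below CD27 and CD40, 1 was lower with RLE and 0 with upper-quartile scaling. With 1 library left out, the counts higher and lower were 1 to 3 and 3 to 4 in the CD28 and B7 families, 1 to 3 and 6 to 8 in the TNF families, 0 to 2 and 2 to 4 for inhibitory receptors, 2 to 4 and 3 to 7 for SLAM receptors, 4 to 10 and 1 to 4 below CD28 and ICOS, 1 to 3 and 1 to 4 below PD-1, 0 to 1 and 0 to 6 below CD27 and CD40, and 2 to 8 and 5 to 9 for transcription factors. These list counts were recomputed as alternatives chosen after seeing the data.

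Among genes that are no members, 4 changed sign, none of them called with all libraries. Btla was at 0.029 and Rel at 0.00 (0.0012) with upper-quartile scaling. With 1 library left out, Sh2d1a ran from -0.41 to 0.026, Rel from -0.32 to 0.084 and Eomes from -0.13 to 0.66. The cause of these changes was not tested.

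Same-numbered libraries deviated from their group means with correlations of 0.28, -0.28 and 0.18, and libraries of unlike number with -0.42 to 0.20. Deviations within a group of 3 are tied to each other, so these correlations cannot decide whether the libraries are paired. The labels do not say whether a number marks a shared day or litter. As no source used here states a pairing, the mice were not treated as paired. A replicate block gave 1607 higher and 1026 lower genes, and Icos stayed at 0.46 with an edgeR adjusted p of 0.0116. It changed the call of none of the 6 genes. With the block the SE of Icos went from 0.11 to 0.09 and that of Cd86 from 0.39 to 0.44.

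Cd86 rests on 16 counts in UTX TCD and 191 in WT cells, so its fold is the least precise. With 3 mice per genotype, no exact test over libraries can reach 0.05.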
